A study of Homo sapiens with 2 samples.

Results

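Aldo-keto reductases are soluble enzymes that use NADPH to reduce aldehydes and ketones to alcohols. Their substrates include steroids, prostaglandins, retinal, sugars and the aldehydes left by lipid peroxidation. In lung tumours the AKR1C genes and AKR1B10 are known as genes of the NRF2 response, the programme that cells use against oxidants and electrophiles. The 10 genes described here are AKR1A1, AKR1B1, AKR1B10, AKR1C1, AKR1C2, AKR1C3, AKR1C4, AKR1E2, AKR7A2 and AKR7A3, out of 18944 gene symbols in the deposited count table. They were selected by symbol, as AKR1 and AKR7 genes, and the family itself was chosen from earlier results of the same comparison, in which the counts of AKR1C and AKR1B genes differed widely between the libraries. Their differences are therefore given as a description.

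RNA was sequenced from H1993, a line of human lung adenocarcinoma cells with extra copies of the gene for the MET receptor kinase. The resistant library came from H1993 cells selected in PHA665752, a MET kinase inhibitor, at concentrations raised from 1 nM to 1 µM, then held at 1 µM. Per the labels' protocols, these cells were grown for 1 week without drug before any experiment, although the treatment label of the library names PHA665752. Whether the resistant cells are 1 clone or a pool is not given in the labels. The parental library came from unselected H1993 cells, with DMSO given as the treatment. There was 1 library per group, so no difference has a replicate check and no test between conditions was possible. The resistant library held 17086748 counts and the parental library 16723181. Levels are in CPM, counts scaled to a common library size with TMM factors.

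As a check of the cell type, the epithelial keratin genes KRT8 and KRT18 were abundant in both libraries, at 3394 and 2468 CPM in the resistant library, against 2666 and 1964 CPM in the parental one. The other 3 epithelial markers were lower in the resistant library, EPCAM at 164 CPM in resistant and 389 CPM in parental cells, CDH1 at 192 CPM in resistant and 309 CPM in parental cells, and KRT19 at 504 CPM in resistant and 777 CPM in parental cells. The lung markers were scarce, with NKX2-1 at 5.95 CPM in resistant and 4.16 CPM in parental cells, SFTPB at 2 counts in each library, SFTPC at 0 counts in resistant and 1 count in parental cells and NAPSA at 0 in both. Of the 4 hepatocyte markers, 2 had a count in the resistant and 1 in the parental library, summing to 0.177 CPM in resistant and 0.238 CPM in parental cells. The endothelial marker CDH5 was at 29.2 CPM in the resistant and 0.297 CPM in the parental library, while PECAM1 and VWF had at most 1 count in either. The summed level of 5 fibroblast markers was 14.6 CPM in the resistant and 20.7 CPM in the parental library, nearly all COL1A1, and DCN was at 0 in both. Of 4 leukocyte markers CD68 made up most, at 31.6 CPM in resistant and 86.0 CPM in parental cells, and CD3E was at 0 in both. PTPRC had 7 counts in resistant and 21 counts in parental cells, and LYZ had 2 counts in resistant and 4 counts in parental cells. The part of other cells in the results below was not tested.

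The family as a whole was more abundant in the resistant library, and its make-up differed. The 10 genes together had 20422 counts in the resistant library and 4466 in the parental one, or 1203 CPM in resistant and 265 CPM in parental cells, a 4.54-fold difference with a 95% counting interval of 4.39 to 4.69. AKR1B1 supplied 54.7% of the family's counts in the resistant library (exact Clopper-Pearson interval 54.0 to 55.4%) and 46.8% in the parental one (45.3 to 48.3%). The AKR1C genes supplied 29.9% (29.3 to 30.5%) in the resistant library and 0.672% (0.454 to 0.958%) in the parental one. AKR1A1 and AKR7A2 together made up 8.28% (7.90 to 8.66%) in the resistant library, against 49.6% (48.1 to 51.1%) in the parental one. In such bulk samples, fewer cells of a type and less RNA per cell cannot be told apart. These intervals, like all others here, cover counting error only, and sequenced reads are not independent molecules.

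A gene counted as tested, meaning compared for its counting error alone, when it reached 1 CPM in at least 1 library. It was called when its log2 ratio (resistant over parental, after adding 0.5 to both counts) was 1 or more in size and its counting interval excluded 0. Among 12245 tested genes, 12.1% were called higher and 8.29% lower in the resistant library, with a median log2 ratio of 0.00. Of the 10 family members, 8 were tested, 6 of these were called higher and 0 lower, and their median log2 ratio was 3.35. Since the family was chosen on this contrast, nothing is read from that count against the background. In the parental library AKR1C1, AKR1C2 and AKR1C3 did not reach 1 CPM, so that they entered only through the resistant one, which fixed their direction. AKR1C4 and AKR7A3 were not tested. The called members were the 3 measured AKR1C genes, AKR1B1, AKR1B10 and AKR1E2.

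**Figure D1:**
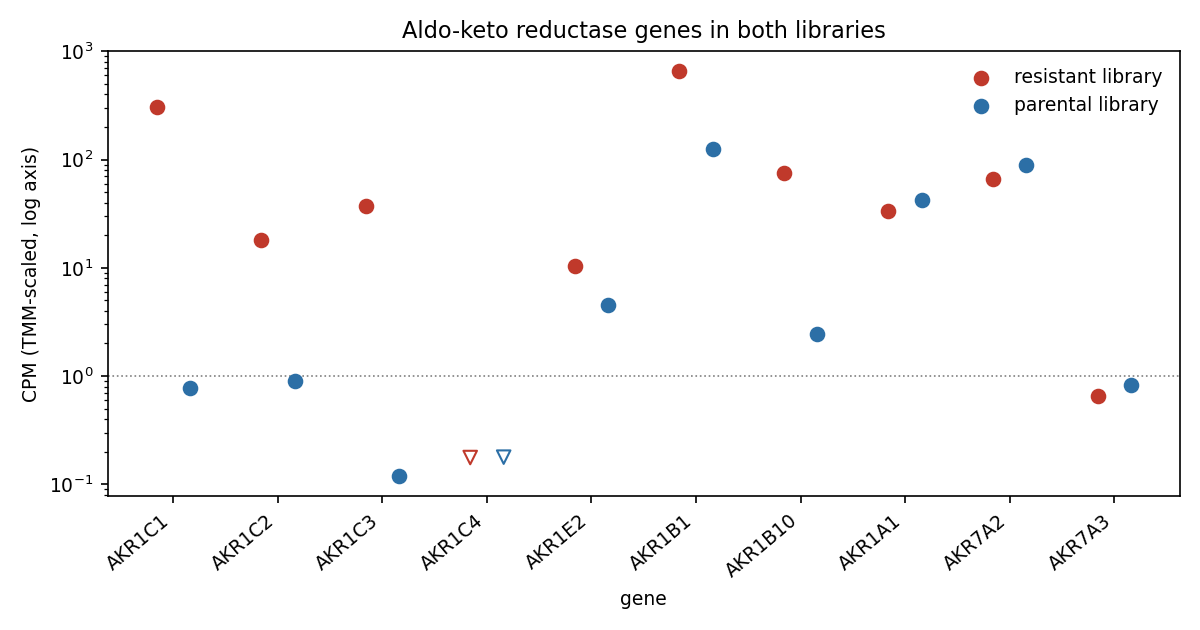
Level of each family member in CPM (log axis) in the resistant library (red, left of each pair) and the parental library (blue, right). The dotted line marks 1 CPM, and the open triangles mark AKR1C4, which had 0 counts in both libraries and is drawn at the level of 3 counts. AKR1C1 stood at 304 CPM in resistant and 0.772 CPM in parental cells, whereas the points of AKR1A1 and AKR7A2 lie close together.

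The AKR1C genes encode hydroxysteroid dehydrogenases that lie side by side on chromosome 10. AKR1C1, which inactivates progesterone, had 5161 counts in the resistant library and 13 in the parental one, or 304 CPM in resistant and 0.772 CPM in parental cells. By CPM it ranked 566 of all genes in the resistant library and 11702 in the parental one. The ratio was 394-fold (230 to 740), which placed AKR1C1 at rank 29 of all tested genes by log2 ratio. AKR1C3, which makes testosterone from androstenedione and also forms prostaglandin F, had 638 counts in the resistant and 2 in the parental library, or 37.6 CPM in resistant and 0.119 CPM in parental cells. With so few parental counts its ratio of 316-fold is loosely bounded, from 87.2 to 2618. AKR1C2, which inactivates dihydrotestosterone and binds bile acids, had 304 counts in the resistant and 15 in the parental library, or 17.9 CPM in resistant and 0.891 CPM in parental cells. Its ratio was 20.1-fold (12 to 36.4), and this interval does not overlap those of AKR1C1 and AKR1C3. AKR1C4, the member known from liver, had 0 counts in both libraries, which allows up to 0.177 CPM in the resistant and 0.178 CPM in the parental library.

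The 4 AKR1C genes are hard to tell apart by sequence, and how the authors treated reads that match several genes is not given in the sources used here. Each has a coding sequence of 969 bases without its stop codon in GENCODE 29. AKR1C1 and AKR1C2 differ at 19 of these positions (98.0% identity), and the longest stretch they share without a difference is 186 bases. AKR1C3 is 91.4% identical to AKR1C1 and 91.0% to AKR1C2, and AKR1C4 is 87.8 to 88.5% identical to the others. The coding positions where AKR1C1 and AKR1C2 differ most densely, 103 to 162 counted from the start codon, are shown because reads over them can tell the genes apart. Capitals in AKR1C1 mark bases that differ from AKR1C2, and capitals in the other genes mark bases that differ from AKR1C1.
AKR1C1: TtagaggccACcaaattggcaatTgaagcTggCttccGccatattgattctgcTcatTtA
AKR1C2: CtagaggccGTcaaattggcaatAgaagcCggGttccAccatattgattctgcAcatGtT
AKR1C3: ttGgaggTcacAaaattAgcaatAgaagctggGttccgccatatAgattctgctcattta
AKR1C4: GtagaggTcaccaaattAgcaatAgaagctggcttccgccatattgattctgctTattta
This stretch of 60 bases holds 10 of the 19 differences between AKR1C1 and AKR1C2.

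The share of a coding sequence that could not be assigned depends on the read length, which is not given in the sources used here. Of all windows of 50 bases in the AKR1C1 coding sequence, 54.3% occur unchanged in a transcript of another AKR gene, mostly AKR1C2, and this share is 20.7% for windows of 100 bases and 4.63% for 150 bases. For AKR1C2 the shares are 57.1%, 26.4% and 7.32%, and for AKR1C3 they are 23%, 9.77% and 2.68%. The split of reads among AKR1C1, AKR1C2 and AKR1C3 is therefore uncertain. Summed over the 4 genes, 6103 counts in the resistant library stood against 30 in the parental one, a 202-fold difference (141 to 299), which does not depend on the split among them. The counts of AKR1C1 and AKR1C2 nevertheless stood in different proportions in the libraries. There were 17 counts of AKR1C1 per count of AKR1C2 in the resistant library (15.1 to 19.1) and 0.867 in the parental one (0.380 to 1.95), where they rest on 13 and 15 counts.

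**Figure D2:**
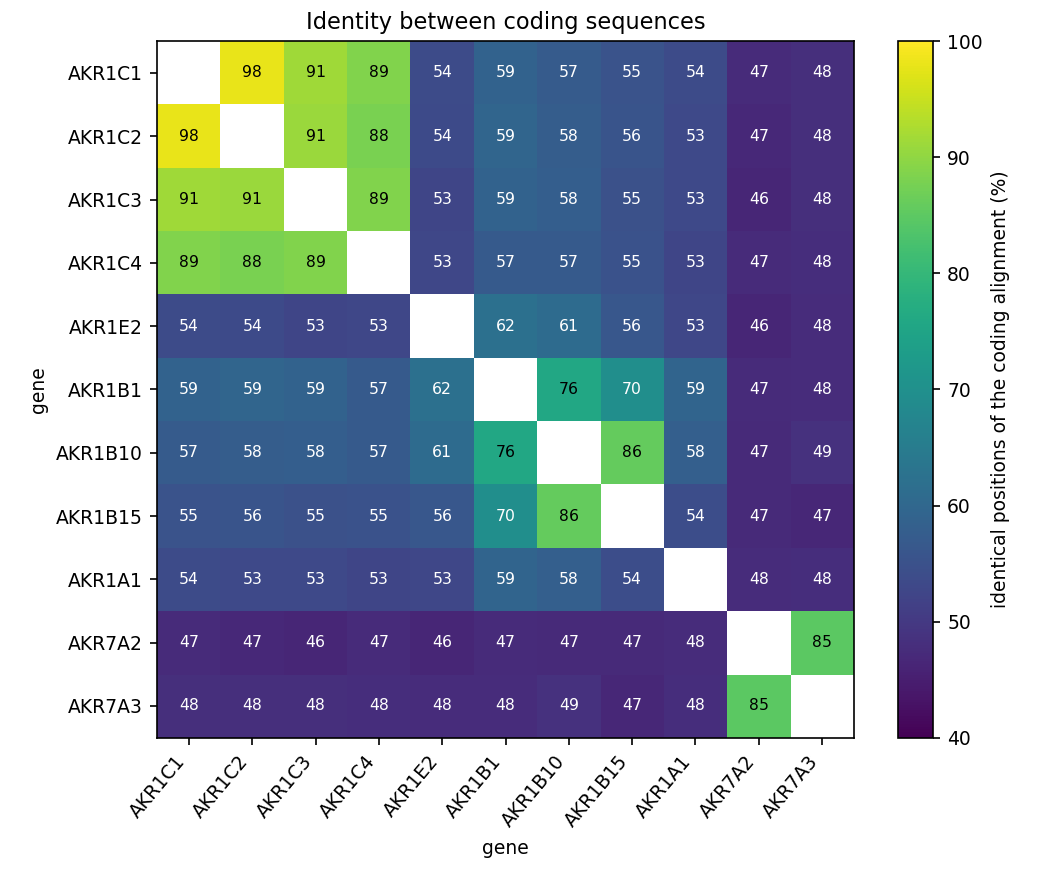
Identical positions, in percent of the aligned coding sequence, for each pair of family members and AKR1B15, from global alignments of GENCODE 29 coding sequences. The AKR1C genes form a block at 88% or more, AKR1B10 and AKR1B15 stand at 86%, AKR7A2 and AKR7A3 at 85%, and AKR1E2 and AKR1A1 stand at 62% or less with every other gene shown.

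AKR1E2, an anhydrofructose reductase, lies beside the AKR1C genes on chromosome 10 but shares 0% of its 50-base windows with any other AKR gene. It had 176 counts in the resistant and 77 in the parental library, or 10.4 CPM in resistant and 4.57 CPM in parental cells. Its ratio of 2.27-fold (1.72 to 3.0) was the smallest among the called members. The lower end of that interval is under 2-fold, and the difference of the deposited log2 values was 0.96, short of 1.

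The AKR1B genes lie together on chromosome 7. AKR1B1 is aldose reductase, which turns glucose into sorbitol in the polyol pathway and also reduces lipid aldehydes. It had 11170 counts in the resistant and 2089 in the parental library, or 658 CPM in resistant and 124 CPM in parental cells. The ratio was 5.30-fold (5.06 to 5.56), and AKR1B1 ranked 186 of all genes by CPM in the resistant library and 1953 in the parental one. It differed less in ratio than the AKR1C genes and AKR1B10, but accounted for the most added counts of any member. AKR1B10, a reductase of retinal and of aliphatic aldehydes known for its high level in some lung cancers, had 1272 counts in the resistant and 41 in the parental library, or 74.9 CPM in resistant and 2.44 CPM in parental cells. Its ratio was 30.8-fold (22.6 to 43.1).

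AKR1B15, the neighbour and closest relative of AKR1B10 and not among the 10 members, had 106 counts in the resistant and 3 in the parental library, a ratio of 35.0-fold (11.7 to 173). The counts of AKR1B10 per count of AKR1B15 were 12 (9.84 to 14.8) in the resistant library and 13.7 (4.36 to 69.0) in the parental one, and these intervals overlap. Their coding sequences are 85.9% identical over the alignment, and 28.5% of the 50-base windows of AKR1B10 recur in another AKR gene, mostly AKR1B15, as do 3.53% of its 100-base windows. Reads of AKR1B10 assigned to AKR1B15 were not tested as a source of its counts. Summed, the 2 genes were 31.1-fold higher (23 to 42.9).

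AKR1A1 and the AKR7A genes were not called. AKR1A1, the aldehyde reductase found in most tissues, had 572 counts in the resistant and 706 in the parental library, or 33.7 CPM in resistant and 41.9 CPM in parental cells, a log2 ratio of -0.32 (-0.48 to -0.15). AKR7A2, which reduces succinic semialdehyde and aflatoxin dialdehyde, had 1118 counts in resistant and 1509 in parental cells, or 65.9 CPM in the resistant and 89.6 CPM in the parental library. Its log2 ratio was -0.44 (-0.56 to -0.33). Both intervals exclude 0 and both genes were lower in the resistant library by less than 2-fold. AKR7A3, its close relative, had 11 counts in the resistant and 14 in the parental library, or 0.648 CPM in resistant and 0.832 CPM in parental cells, with a log2 ratio of -0.35 and an interval from -1.64 to 0.89. That interval takes in a 2-fold lower level as well as no difference. For AKR7A3, 31.5% of its 50-base windows are shared, mostly with AKR7L, which is not analysed here.

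**Figure D3:**
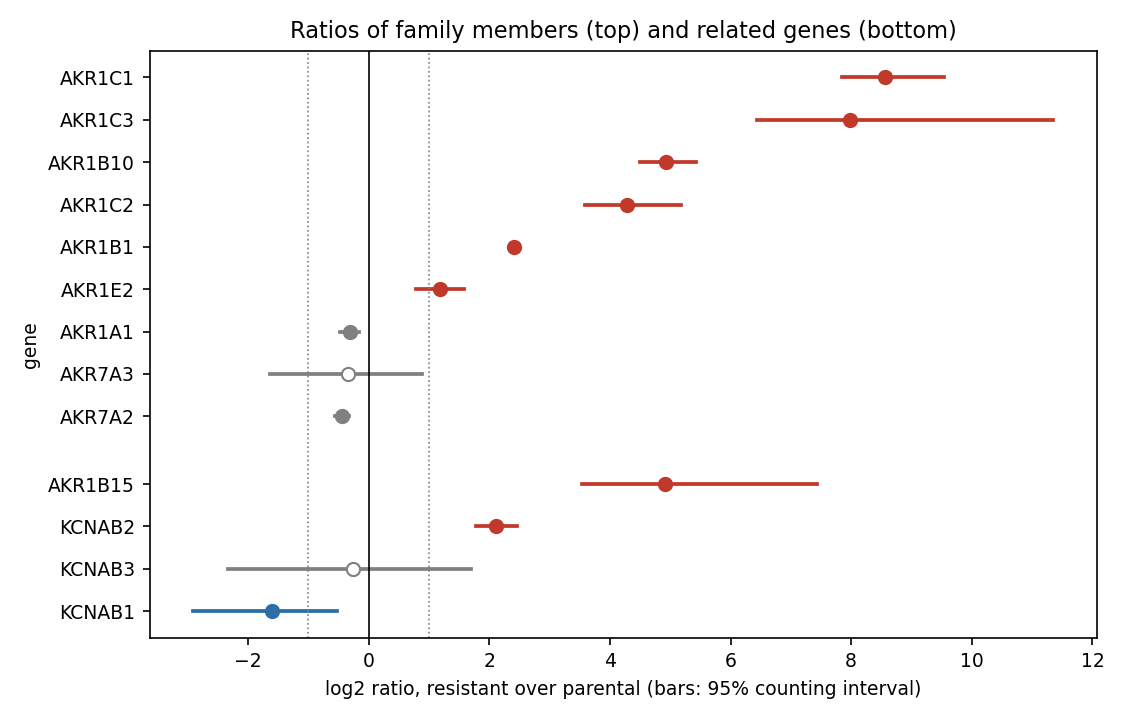
Log2 ratio, resistant over parental, of family members with counts (top) and of related genes of the superfamily (bottom), with 95% counting intervals as bars and dotted lines at 2-fold. Red marks genes called higher, blue called lower, grey neither, and open circles genes that were not tested. AKR1C1 and AKR1C3 lie near 8, AKR1B10 and AKR1C2 between 4 and 5, and AKR1A1 and AKR7A2 between -0.5 and 0.

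The other genes of the superfamily in the table were few. The voltage-gated potassium channel beta subunits carry an aldo-keto reductase fold. KCNAB2 had 394 counts in the resistant and 90 in the parental library and was 4.34-fold higher (3.45 to 5.52). KCNAB1 had 9 counts in resistant and 28 counts in parental cells, a log2 ratio of -1.60 (-2.92 to -0.53), and was called lower, although its deposited log2 values differed by only -0.35. KCNAB3, with 5 counts in resistant and 6 in parental cells, and AKR1D1, the steroid reductase of bile acid synthesis, with 1 count in the resistant and 0 in the parental library, were not tested. AKR1B15 entered only through the resistant library and KCNAB1 only through the parental one, which fixed their directions, so no count is given for this group.

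Levels of different genes can be set beside each other only per length. The authors' deposited log2 values behave as such a scale: over 9317 genes with at least 100 counts in both libraries, the length implied by CPM over the linear value (2 to the deposited value, less 1) had a Spearman correlation with the longest coding transcript of 0.86 in each library. This is a description across genes, and the method behind the deposited values is not given in the sources used here. On that scale the order in the resistant library was AKR1B1 (9.06), AKR1C1 (7.98), AKR1B10 (5.73), AKR1C3 (5.20), AKR7A2 (4.77), AKR1A1 (4.75), AKR1E2 (3.09), AKR1C2 (2.78), AKR7A3 (0.68) and AKR1C4 (0). The counting intervals of AKR7A2 (4.69 to 4.85) and AKR1A1 (4.64 to 4.87) overlap, and so do those of AKR1E2 (2.90 to 3.28) and AKR1C2 (2.63 to 2.91). In the parental library AKR1B1 again came first, at 6.66 on this log2 scale. AKR7A2 (5.20), AKR1A1 (5.05), AKR1E2 (2.13), AKR1B10 (1.43), AKR7A3 (0.83), AKR1C1 (0.71), AKR1C2 (0.33), AKR1C3 (0.16) and AKR1C4 (0) followed, where AKR7A2 (5.13 to 5.27) and AKR1A1 (4.95 to 5.16) overlap, as do AKR1B10 (1.15 to 1.72) and AKR7A3 (0.51 to 1.20), AKR7A3 and AKR1C1 (0.42 to 1.06), AKR1C1 and AKR1C2 (0.20 to 0.51), and AKR1C2 and AKR1C3 (0.02 to 0.50). The parental intervals of AKR7A3 and AKR1C2 also overlap, as do those of AKR1C1 and AKR1C3. AKR1C2 stands low on this scale partly by its implied length of 3.06 kb in the resistant library, against 1.21 kb for AKR1C1. Per kilobase of coding sequence AKR1C2 was at 18.5 CPM and AKR1E2 at 10.8 CPM in the resistant library, the opposite order. AKR7A2, at 61.2 CPM per coding kilobase, likewise stood above AKR1C3, at 38.8.

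**Figure D4:**
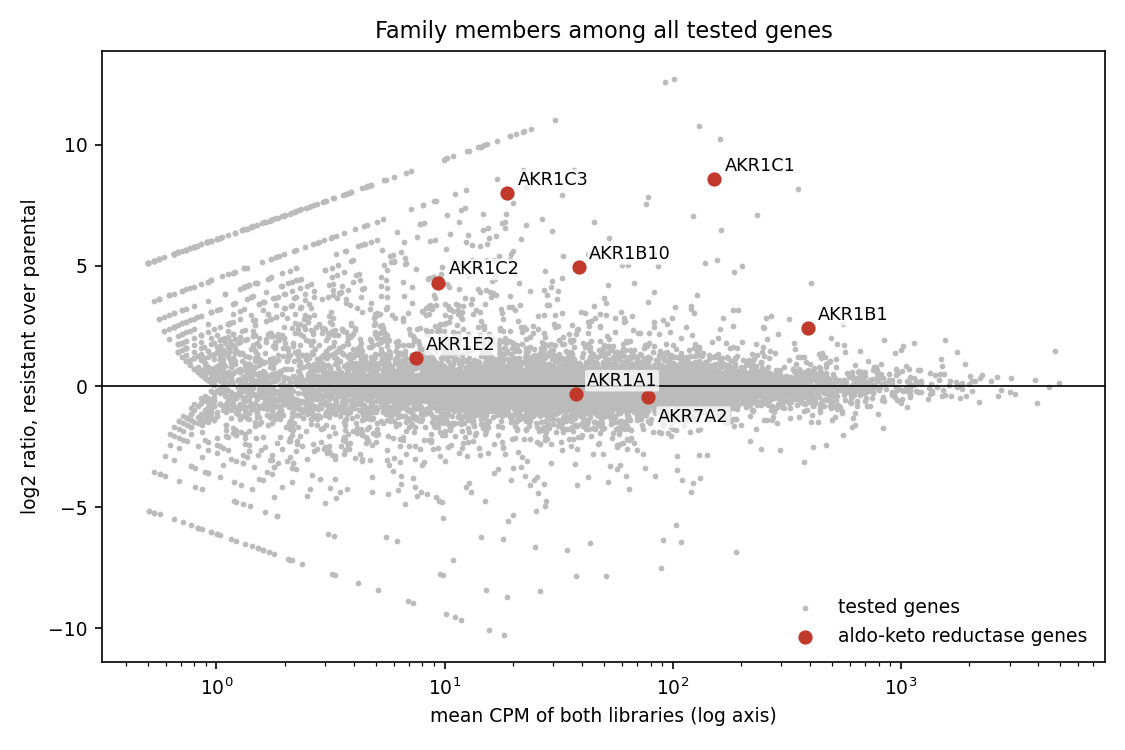
Log2 ratio, resistant over parental, against the mean CPM of both libraries (log axis) for all 12245 tested genes (grey), with the 8 tested family members in red. AKR1C1 and AKR1C3 lie near the upper edge of the cloud, while AKR1A1 and AKR7A2 lie inside its dense centre.

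With only 2 libraries, a gene's pattern is its pair of levels. The tested gene outside the superfamily nearest to each called member in the log2 CPM of both libraries (with 0.5 added) was the intermediate filament gene VIM for AKR1C1, at 322 CPM in resistant and 0.238 CPM in parental cells. It was SPP1, which encodes osteopontin, for AKR1C3 (39.9 CPM in resistant and 0.178 CPM in parental cells) and CNTNAP1 for AKR1C2 (18.3 CPM in resistant and 0.772 CPM in parental cells). NES, the nestin gene, was nearest to AKR1B10 (62.4 CPM in resistant and 2.79 CPM in parental cells). The deubiquitinase gene USP9X was nearest to AKR1B1 (527 CPM in resistant and 151 CPM in parental cells). SLC10A7 was nearest to AKR1E2 (10.6 CPM in resistant and 4.57 CPM in parental cells). The distance was largest for VIM, at 0.79, and lay between 0.03 and 0.43 for the others. In the parental library 3 counts make 0.178 CPM, so the parental levels of AKR1C3, VIM and SPP1 rest on few counts.

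Genes beside the AKR genes were examined in RefSeq gene order, taking the 10 nearest tested genes on each side. Their counts are given beside the 12.1% higher and 8.29% lower of all tested genes. Around the AKR1C genes 0 of 20 neighbours were called higher and 3 lower, and their median log2 ratio was -0.08. The nearest tested gene before the group, the transcription factor gene KLF6, was at 0.50, and the nearest after it, NET1, was lower at -1.69. The lower neighbours also included PFKFB3 (-1.02), a regulator of glycolysis, and DIP2C (-1.27). The highest ratio among these 20 was 0.66, below those of AKR1E2 (1.18), AKR1C1, AKR1C2 and AKR1C3. Around the AKR1B genes 4 of 20 neighbours were higher, 1 was lower and the median was 0.11. The higher ones were the actin-binding gene CALD1 (4.02), the carboxypeptidase gene CPA4 (1.77), CEP41 (1.69) and WDR91 (1.19). The lower one was the semaphorin receptor gene PLXNA4, at 1 count in resistant and 61 counts in parental cells. It entered only through the parental library, which fixed its direction. PLXNA4 differed by only -0.34 in the deposited log2 values. CALD1 is the second tested gene after AKR1B15, and BPGM, which lies between them, was at 0.93.

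Around the AKR7A genes 2 of 20 neighbours were higher, ACTL8 (3.28) and MINOS1-NBL1 (2.36), and 1 was lower, CAMK2N1 (-1.91), with a median of -0.13. ACTL8 (0.416 CPM) and MINOS1-NBL1 (0.950 CPM) were under 1 CPM in the parental library. Both entered only through the resistant one, which fixed their direction. MINOS1-NBL1 is a read-through of 2 overlapping genes, so its counts are uncertain. Around AKR1A1 17 of 20 neighbours had a ratio below 0, with a median of -0.60, and 3 were called lower, PIK3R3 (-1.77), TSPAN1 (-1.51) and the DNA glycosylase gene MUTYH (-1.33). The ratio of AKR1A1 itself, -0.32, lay above that median. The part of gene copy number in any of these differences was not tested.

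**Figure D5:**
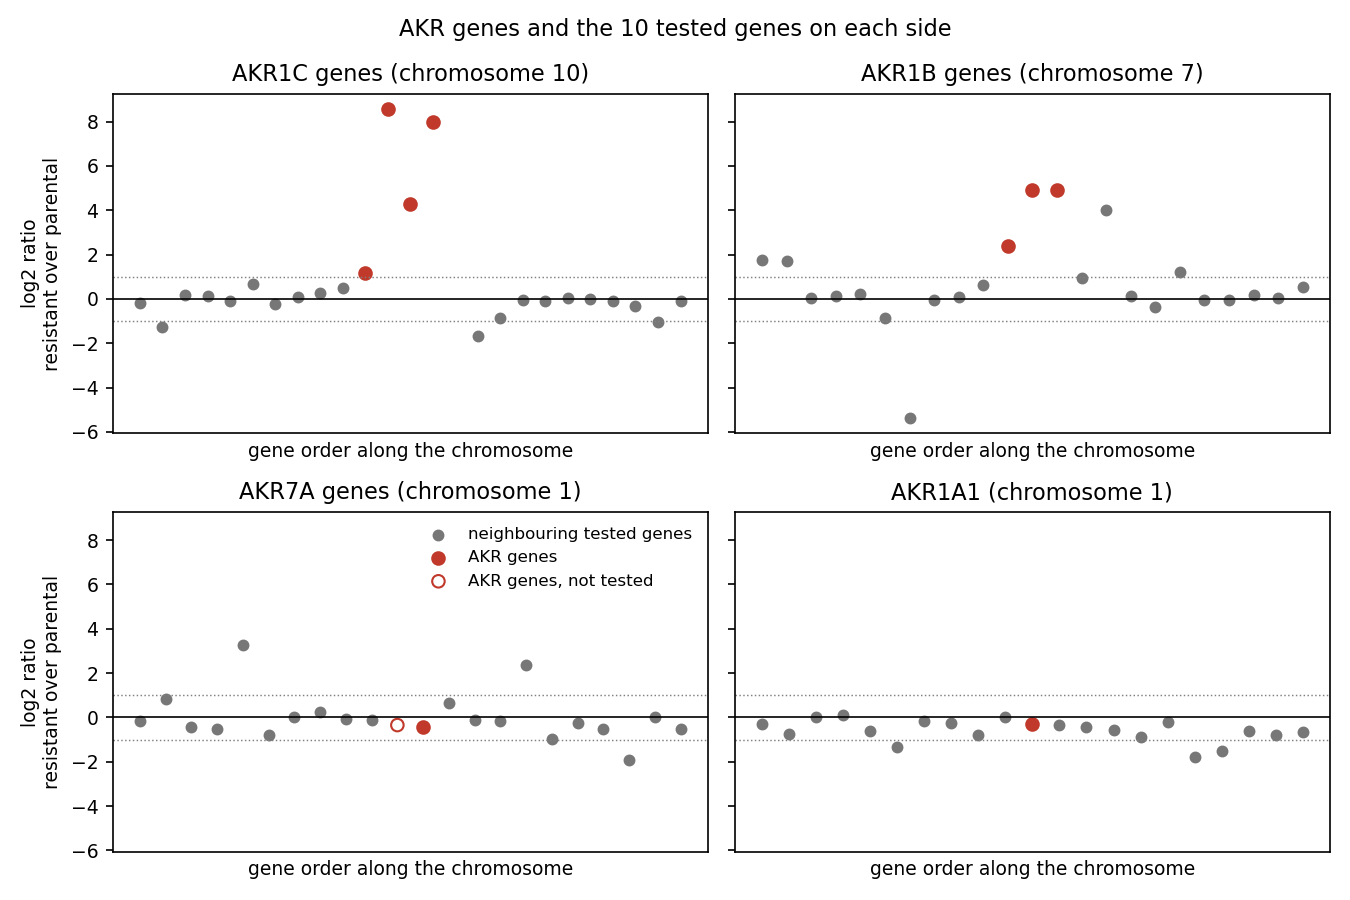
Log2 ratio, resistant over parental, of AKR genes (red) and the 10 tested genes on each side (grey), in gene order along the chromosome, for 4 places in the genome. Dotted lines mark 2-fold, open circles mark AKR genes that were not tested, and AKR1C4 (no counts) is not drawn as a point. The tested AKR genes of chromosome 10 lie above flanking genes that lie between -1.69 and 0.66.

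Promoters from RefSeq (GRCh38.p14, from 250 bases before to 50 after the annotated start) were matched for 9 of the 10 members, with 13 promoters in all. AKR1B10 is the member with none. They were searched on both strands for TGACNNNGC, the core of the antioxidant response element (ARE) that NRF2 binds. Also searched was TGANTCA, the AP-1 pattern, which allows any middle base and so is looser than the site of AP-1 factors. The ARE core was found in 13.3% and the AP-1 pattern in 7.71% of 35116 promoters, or in 16.1% and 9.37% of 27305 genes. Among the members only AKR7A2 held the ARE core, 3 times, and the AP-1 pattern was in none of them. AKR7A2 was not called and had a log2 ratio of -0.44. No match says only that these letters are not in this window, and a match is not a site.

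The promoters of AKR1C1 (chr10:4963165-4963464, plus strand) and AKR1C2 (chr10:5003808-5004107, minus strand) are shown because they are nearly the same sequence. The counts of AKR1C1 and AKR1C2 differed in the resistant library, at 5161 and 304. In the parental library they were 13 and 15, and the split of reads between the genes is uncertain. Capitals mark bases that differ between them or have no partner in the alignment.
AKR1C1: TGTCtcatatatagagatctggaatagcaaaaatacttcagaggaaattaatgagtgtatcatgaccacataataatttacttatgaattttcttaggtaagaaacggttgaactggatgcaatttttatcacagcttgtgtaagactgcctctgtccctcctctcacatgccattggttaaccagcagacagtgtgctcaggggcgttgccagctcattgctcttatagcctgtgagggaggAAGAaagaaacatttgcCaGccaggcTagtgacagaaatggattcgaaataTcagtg
AKR1C2: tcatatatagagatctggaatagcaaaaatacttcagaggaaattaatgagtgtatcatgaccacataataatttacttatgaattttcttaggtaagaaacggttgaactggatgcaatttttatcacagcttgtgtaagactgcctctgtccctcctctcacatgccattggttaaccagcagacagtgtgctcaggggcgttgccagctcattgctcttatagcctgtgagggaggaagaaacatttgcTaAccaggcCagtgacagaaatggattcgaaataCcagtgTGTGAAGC
Over the alignment 288 positions are identical, 4 are substitutions and 16 lie opposite a gap.

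The promoter of AKR7A2 (chr1:19312097-19312396, minus strand; a second annotated start lies 2 bases away) is shown with its matches to the ARE core in capitals, at -167 on the reverse strand and at -156 and -95 on the forward strand.
AKR7A2: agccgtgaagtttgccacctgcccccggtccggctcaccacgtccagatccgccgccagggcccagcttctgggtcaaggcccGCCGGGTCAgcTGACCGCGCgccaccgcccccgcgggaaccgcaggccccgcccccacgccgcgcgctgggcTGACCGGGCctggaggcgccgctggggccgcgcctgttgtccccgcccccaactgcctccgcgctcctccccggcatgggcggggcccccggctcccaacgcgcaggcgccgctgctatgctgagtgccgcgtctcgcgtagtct
The AKR7A2 promoter has 77.0% G or C and 39 CpG dinucleotides. Those of AKR1C1 and AKR1C2 have 41.0% and 41.3%, with 3 CpG each, and the pair annotated for AKR1C3 33.7% and 36.7%, with 0. AKR1A1 has 61.3% and 21 CpG, and the pair annotated for AKR1B1 68.7% and 54.3%, with 33 and 18. The median over all promoters was 58.7%. AKR1C4, with 0 counts in both libraries, has 38.0% and 1 CpG. The pair annotated for AKR1E2, called higher, has 61.3% and 62.0%, with 20 and 23 CpG. AKR7A3, not tested, has 68.0% and 33 CpG. Few CpG were thus found in the AKR1C genes with counts and in AKR1C4 without any, while AKR1B1, also called higher, had many.

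The other genes of the pathways in which these enzymes act are given by 11 lists, and the members of each list are given beside the 12.1% and 8.29% of all tested genes. Where genes were under 1 CPM in 1 library and entered only through the other, that fixed their direction, and their number is given. The most abundant gene of a list is the tested gene with the highest mean CPM of both libraries, which is not per length. Of 27 listed enzymes of steroid synthesis and inactivation, 17 were tested, 4 were higher, 1 lower, and the median log2 ratio was 0.17. Of these 17, 4 entered only through the resistant library, among them 3 of the 4 called higher (HSD17B2, HSD3B1 and HSD17B14). With the whole interval beyond 2-fold, or at 4-fold, 2 of the steroid enzyme genes were called higher. HSD17B2, which inactivates estradiol and testosterone, had 659 counts in the resistant and 0 in the parental library, at least 218-fold higher against the 3 counts that a count of 0 allows. That bound takes the resistant count as exact, and the counting interval of the ratio, which does not, begins at 177-fold. HSD3B1, an enzyme of progesterone synthesis, had 86 counts in resistant and 5 counts in parental cells. HSD11B2, which inactivates cortisol, was lower (-1.46), and HSD17B4, the most abundant, was at -0.20. Of 5 tested steroid receptor genes 2 were higher and 0 lower, and 1 entered only through each library. With the deposited log2 values, at 4-fold, or with a filter of 5 CPM, 1 was higher and 0 lower. The mineralocorticoid receptor gene NR3C2 had 49 counts in resistant and 10 in parental cells, though its deposited log2 values differed by 0.43. NR3C2, at 0.594 CPM in the parental library, entered only through the resistant one, which fixed its direction. The glucocorticoid receptor gene NR3C1, the most abundant, was at -0.12.

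Of 24 prostaglandin genes 12 were tested, with 4 higher, 3 lower and a median of -0.12. PTGS2, which encodes the inducible cyclooxygenase, was at 58.5 CPM in the resistant and 7.01 CPM in the parental library, 8.35-fold higher (6.89 to 10.2). PTGR1, a reductase of prostaglandins and leukotrienes, was 8.28-fold higher (6.99 to 9.88). HPGD, which starts the breakdown of prostaglandins, had 12 counts in resistant and 253 counts in parental cells and was 21.3-fold lower (12 to 41.7). The prostaglandin transporter gene SLCO2A1 had 4 counts in resistant and 37 counts in parental cells, with a difference of -0.53 in the deposited log2 values, and the most abundant gene, PTGES3, was at -0.13. With the deposited log2 values, with libraries scaled to their totals, or with either stricter call rule (the whole interval beyond 2-fold, or 4-fold), 2 of these genes were called higher. HPGD and SLCO2A1 entered only through the parental library.

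Genes that handle the same carbonyls by other routes showed both directions. Of 15 tested aldehyde dehydrogenase genes, which oxidise aldehydes instead of reducing them, 4 were higher, 1 was lower and the median was 0.09. ALDH1A2, which makes retinoic acid, had 657 counts in resistant and 0 counts in parental cells (at least 217-fold against 3 counts, with a counting interval from 176-fold), and ALDH2, the mitochondrial enzyme of acetaldehyde clearance, 1104 counts in resistant and 4 counts in parental cells, 274-fold higher (107 to 1006). ALDH1A2, ALDH2 and ALDH1L2, 3 of the 4 called higher, entered only through the resistant library. ALDH1A3, another retinoic acid enzyme, was lower (-2.12), and ALDH18A1, the most abundant, was at -0.17. Of 15 tested carbonyl reductases of the short-chain dehydrogenase family 2 were higher, 3 lower, and the median log2 ratio was 0.18. With the whole interval beyond 2-fold 1 was higher and 2 lower, and at 4-fold 1 was higher and 1 lower. DHRS2 was at 44.3 CPM in the resistant and 2.85 CPM in the parental library and DHRS7 had a log2 ratio of 1.12. DHRS9, with 11 counts in resistant and 151 counts in parental cells, and the retinal reductase gene DHRS3 (-1.42) were lower. DCXR, the most abundant, was at 0.34. DHRS9 entered only through the parental library. Of the alcohol dehydrogenase genes only ADH5 was tested, at 0.19.

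Of 13 tested retinoid genes 2 were higher, 3 lower, and the median log2 ratio was -0.34. With the deposited log2 values, or the whole interval beyond 2-fold, 1 was higher and 3 lower. At 4-fold 0 were higher and 1 lower. The retinol dehydrogenase gene RDH10, also the most abundant, was 2.29-fold higher (2.16 to 2.42) and the retinol transporter gene STRA6 2.03-fold (1.76 to 2.35), though the deposited log2 values of STRA6 differed by 0.92. The retinoic acid binding protein gene CRABP2 was 16.9-fold lower (13.3 to 21.7) and the receptor gene RARG 2.80-fold lower (2.50 to 3.15). Of 5 tested genes of the polyol and fructose route, 0 were higher and FBP1, a gluconeogenic phosphatase, was lower, at 22 counts in resistant and 398 counts in parental cells. GFPT1, the most abundant, was at 0.23, and the list's median was -0.01.

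The list for the supply of NADPH, the cofactor of the family, holds 16 tested genes, of which 4 were higher, 2 lower, and the median log2 ratio was 0.13. ME3 had 153 counts in resistant and 0 counts in parental cells (at least 50.6-fold against 3 counts, with a counting interval from 40.6-fold), and the transhydrogenase gene NNT was 12.5-fold higher (9.90 to 15.9). ME3 entered only through the resistant library. IDH2 (-1.40) and RPIA (-1.16) were lower. TKT, the most abundant, was at 0.82. Among the other higher genes, named after its values were seen, was PGD, a dehydrogenase of the pentose phosphate pathway, at 711 CPM in resistant and 328 CPM in parental cells.

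Of 13 tested regulators of NRF2, 2 were higher, 1 lower, and the median log2 ratio was 0.31. NFE2L2, the NRF2 gene itself, had 4272 counts in the resistant and 1065 in the parental library, 3.98-fold higher (3.72 to 4.26). SQSTM1, whose product binds the NRF2 inhibitor KEAP1, was 3.49-fold higher (3.40 to 3.57) and the most abundant of them. NFE2L3, a related factor gene, was lower (-1.44). Of 25 tested NRF2 targets outside the family, 12 were higher, 1 lower, and the median log2 ratio was 0.99. GSTM3, at 264 counts in resistant and 2 counts in parental cells, was 131-fold higher (35.9 to 1087), and its split of reads from related GSTM genes is uncertain. GSTM3 entered only through the resistant library. UGT1A6, which shares exons with other UGT1A genes, was 7.22-fold higher (6.19 to 8.45), and TXNRD1, the most abundant, 3.79-fold. GPX2 was 6.13-fold lower (4.32 to 8.93). This list was known to be higher from earlier results of these data, so its count is not independent of that knowledge.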

How the data were processed

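Per the labels' protocols, total RNA was extracted with TRIzol and TruSeq libraries were sequenced. The deposited counts of the 2 libraries are named as mRNA-seq. The submitters' processing notes name FastQC, STAR (versions are not stated) and the builds GRCh38 and hg19. The counting program, strand setting and treatment of multiply matching reads are not given in the sources used here. The authors deposited raw counts per gene symbol and normalized log2 values, per the file headers. The log2 values served as an alternative and for order per length.

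Libraries were scaled with edgeR 4.0.16 (TMM, R 4.3.3) to effective sizes of 16974207 (resistant) and 16834058 (parental). Ratios have 0.5 added to each count. Their exact conditional binomial 95% intervals (scipy 1.17.1) use the counts as deposited. They were run on simulated counts that held counting error only, as the intervals assume. That run cannot show how they fare where libraries differ beyond counting error. Coding sequences and identities came from GENCODE 29 and Biopython 1.88, and gene order from RefSeq, which placed 18850 of 18944 symbols. Members, lists and the naming rule were chosen with earlier results of these data known. The rule names all members and relatives, from each list the 2 called genes highest and lowest in ratio and the most abundant, called neighbours, nearest genes and markers. Planned protein comparisons were replaced by coding sequences. Alternatives were other scalings (DESeq2 1.42.0, totals), filters, added counts, call rules, the deposited log2 values and summed relatives. Some genes of the lists are not reported here by name.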

Additional observations from a re-analysis of the deposited data

How the results depend on the processing

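No paired analysis was possible because each group has 1 library, and no replicate could be left out. The 6 called members kept their direction under every alternative that gives a ratio. With the deposited log2 values, which compress low genes, the differences were 7.27 for AKR1C1, 5.04 for AKR1C3, 4.30 for AKR1B10 and 2.44 for AKR1C2. Summing relatives gave 7.63 for the AKR1C genes (AKR1C1 and AKR1C2 lay outside this, AKR1C3 did not) and 2.54 for AKR1B1 and AKR1B10 with AKR1B15. AKR1E2 lost its call with the deposited log2 values, with the whole interval beyond 2-fold and at 4-fold, which left 5 members called. Over all tested genes, the counts higher and lower were 926 and 591 with the deposited log2 values and 774 and 359 at 4-fold, and 655 were lower with the whole interval beyond 2-fold. In the 11 lists together, 36 of 137 tested genes were higher and 16 lower, against 20 and 8 at 4-fold. Beside the AKR genes, 6 of 80 tested genes were higher and 8 lower, against 3 and 1 at 4-fold. Of these neighbours, 5 were lower both with the deposited log2 values and with the whole interval. The shares over all tested genes were 12.1% higher and 8.29% lower. The DESeq2 factors, total counts, added counts and both filters moved none of these summed counts by over 1.5 times. At its depth the interval of AKR7A3 takes in both no difference and a 2-fold lower level.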
